A study of Mus musculus with 2 samples.

Results

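The Krüppel-like factor (KLF) genes Klf2, Klf3, Klf4, Klf5, Klf6, Klf7, Klf9, Klf10, Klf13 and Klf15 were examined for open chromatin in hepatic stellate cells, liver pericytes that store retinoids. These 10 genes, which include factors of quiescence and of the early response, were taken by name from the 21887 protein-coding genes on the placed chromosomes. All 10 were found in the gene table. Each locus here runs from 20 kb below to 20 kb above the gene body. Replicate A held 38 peaks in these loci out of 36577, and replicate B held 36 out of 28794. Replicated means that an entry of A shares 1 bp or more with an entry of B, and 31 of the 23452 replicated peaks lay in the KLF loci.

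The data are ATAC-seq, in which the transposase Tn5 cuts and tags accessible DNA, from 2 samples of 1 group, labelled control replicates A and B. The mice were healthy, ate chow, were of strain C57BL6/JBomTac and carried the reporter allele Gt(ROSA)26Sortm1(mCherry-Rpl10a-Flop)Kra together with the transgene Tg(Lrat-cre)1Rshw, on a background written as B6.Cg. In this model Cre is driven by Lrat, a gene of retinol storage that marks stellate cells in the liver, and nuclei were sorted by their mCherry-RPL10A. The age of the mice is not given in the labels used here. No label ties the replicates to different animals, so their differences may be technical only, and with 1 group no conditions were compared. The peak names in the list of B begin with "Oil", those in A do not, and the labels were followed. The lists hold no read counts, so depth is unknown.

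A larger share of the markers listed for the labelled cell type had a replicated peak than of those listed for other liver cells. The lists were chosen with earlier results of these data known, so this is a description and no support for the label. Genes were not matched for span, and the difference was not tested. All 10 stellate cell markers, among them Lrat, Reln and Des, had a replicated peak in the locus, and 9 had one within 1 kb of an end of the gene. Over all protein-coding genes, 64.6% had a replicated peak in the locus and 41.9% had one at a gene end. Of 32 markers of hepatocytes, endothelium, myeloid cells, cholangiocytes, smooth muscle, fibroblasts and lymphocytes, 13 had a replicated peak in the locus and 2, the endothelial receptor gene Kdr and the smooth muscle myosin gene Myh11, had one at a gene end. Among the 6 sinusoidal endothelial markers this was 3 in the locus and 1 at a gene end, and Stab2, Lyve1 and Cdh5 had no replicated peak. Of the 5 smooth muscle and fibroblast markers, 4 had a replicated peak in the locus, with a highest fold enrichment in A from 11.5 at Dpt to 26.4 at Cnn1, and Acta2 had no entry in either list. The part of such nuclei in the KLF peaks was not tested. In a mixed sample a peak from few nuclei and a weakly open site in all of them cannot be told apart.

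KLF proteins are transcription factors with zinc fingers at the C terminus that bind GC-rich sites and CACCC boxes, which they share with the related SP factors. Some members mainly activate, some recruit the corepressors CtBP or Sin3, and several are induced within minutes to hours by growth factors, shear stress or hormones. In the liver, KLF6 was described as an early gene of stellate cell activation. KLF2 and KLF4 are linked to quiescence of vascular cells.

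All 10 KLF loci were open in both replicates. Each had at least 1 replicated peak, against 64.6% of all protein-coding genes. The number ran from 1 at Klf5 to 6 at Klf13, with a median of 3, where the median of all protein-coding genes was 1. Klf2, Klf4 and Klf6 had 2 each, Klf3 and Klf15 had 3, and Klf7, Klf9 and Klf10 had 4. The KLF genes span 2.59 kb (Klf2) to 92.9 kb (Klf7). Among the 16165 protein-coding genes within this range of spans the median was also 1, and 70.4% had a replicated peak. The order did not follow length throughout: Klf10, with a span of 9.25 kb, had as many replicated peaks as Klf7. Of all protein-coding genes, 3.41% had at least the 6 of Klf13, 12.1% at least 4, and 40.8% at least 2.

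**Figure D1:**
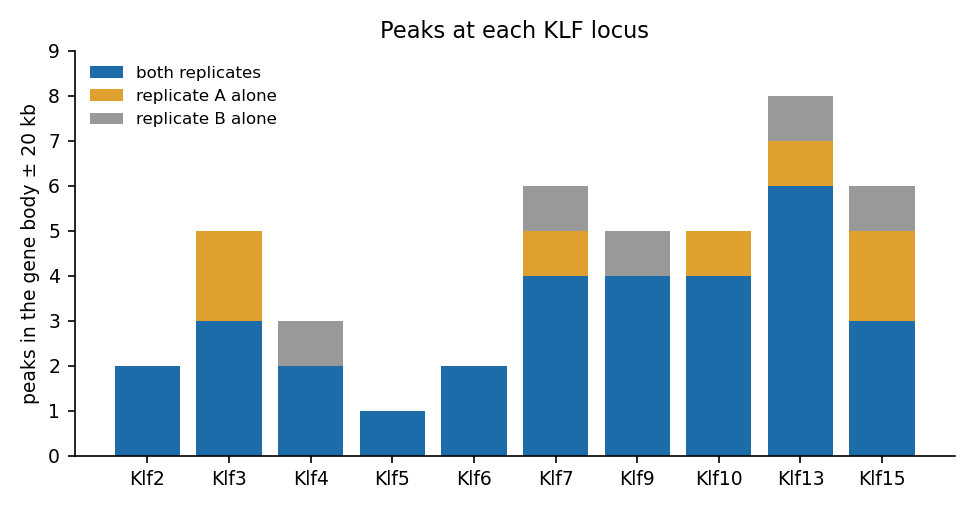
Number of peaks (vertical axis) in the body and 20 kb flanks of each KLF gene (horizontal axis), stacked by whether the peak was in both replicates, in A alone or in B alone. Every gene has a replicated peak; Klf13 has the most with 6 and Klf5 has 1.

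**Figure D2:**
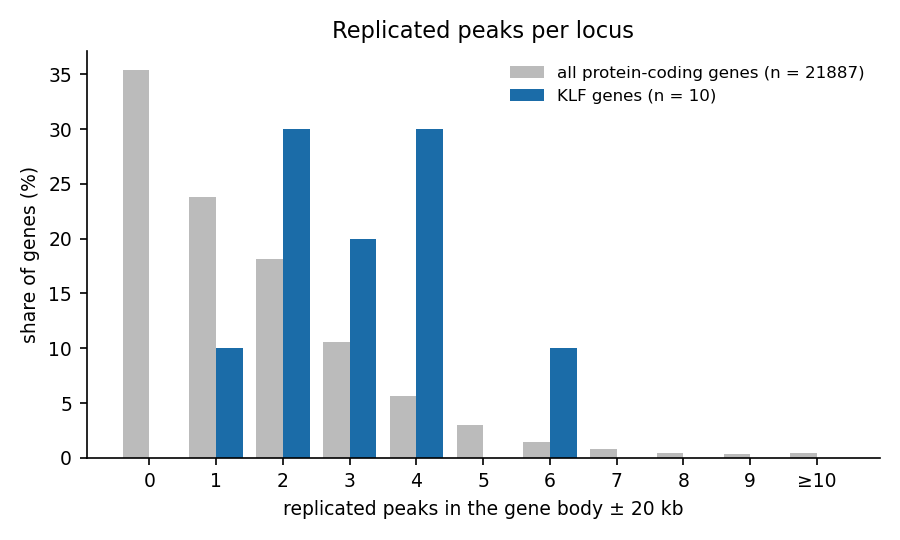
Share of genes in percent (vertical axis) by number of replicated peaks in the locus (horizontal axis), for all 21887 protein-coding genes in grey and the 10 KLF genes in blue. No KLF gene falls in the class of 0, where the class of all genes is largest, and the KLF median is 3 against 1.

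The gene starts were the most regular feature. A start was tabulated for 8 of the 10 genes, all but Klf5 and Klf10, and all 8 had a replicated peak within 1 kb of it, against 44.2% of the 17492 protein-coding genes with a tabulated start. Counted by gene ends, which needs no strand, 9 of 10 had a replicated peak within 1 kb of an end, against 41.9% of all protein-coding genes. Klf15 was the exception, because its tabulated start lies more than 1 kb inside its gene span. Openness of a start went with base composition over all genes. The 250 bases before the start were 59.2% to 78.4% G or C in the 8 KLF genes, with a median of 71.4%, and the median of all 21263 windows of protein-coding genes was 55.6%. Among the 6908 genes with a window in the KLF range 66.5% had a replicated start peak, and among the 10227 genes below it 28.6% had one. At Klf2, Klf4, Klf6, Klf9 and Klf13 all 250 bases lay inside 1 peak of A and 1 peak of B, a coverage found at 8.27% of genes with a tabulated start. In Klf3 the peak of A covered 225 of them and that of B all 250. In Klf15 both covered 135, and in Klf7 they covered 127 and 126.

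Of these upstream windows 5 are shown. Klf6 and Klf2 had the start peaks of highest fold enrichment, Klf9 and Klf3 had the widest start peaks with no GC box in Klf9 and the most in Klf3, and Klf15 had a start that was open only in part. Sequences are from RefSeq, build GRCm38.p6, which is the assembly of mm10, and run 5′ to 3′ toward the gene, the last base being next to the start. Capitals mark the boxes CACCC and GGGCGG on either strand and the palindrome CACGTG.
Klf6, chr13:5861239-5861488, plus strand: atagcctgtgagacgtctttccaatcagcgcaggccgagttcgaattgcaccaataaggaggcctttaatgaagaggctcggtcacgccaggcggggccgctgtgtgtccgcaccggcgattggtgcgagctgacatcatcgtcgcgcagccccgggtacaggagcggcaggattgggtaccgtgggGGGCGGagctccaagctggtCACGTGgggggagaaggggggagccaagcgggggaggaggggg
Klf2, chr8:72318812-72319061, plus strand: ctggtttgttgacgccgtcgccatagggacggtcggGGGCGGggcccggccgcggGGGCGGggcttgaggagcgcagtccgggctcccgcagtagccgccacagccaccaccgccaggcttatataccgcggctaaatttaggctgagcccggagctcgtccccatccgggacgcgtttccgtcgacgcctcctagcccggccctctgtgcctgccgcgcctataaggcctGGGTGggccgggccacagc
Klf9, chr19:23140976-23141225, plus strand: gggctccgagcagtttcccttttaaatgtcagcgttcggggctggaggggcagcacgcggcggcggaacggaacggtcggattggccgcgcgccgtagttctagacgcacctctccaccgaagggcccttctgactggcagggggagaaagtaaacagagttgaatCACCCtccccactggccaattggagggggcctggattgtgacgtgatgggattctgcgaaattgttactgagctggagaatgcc
Klf3, chr5:64803271-64803520, plus strand: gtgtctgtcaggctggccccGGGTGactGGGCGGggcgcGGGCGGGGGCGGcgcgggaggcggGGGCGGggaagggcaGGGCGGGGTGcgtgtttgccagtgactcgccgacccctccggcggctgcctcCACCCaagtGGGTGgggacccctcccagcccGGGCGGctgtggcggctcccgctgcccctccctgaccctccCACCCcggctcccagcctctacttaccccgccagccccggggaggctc
Klf15, chr6:90462326-90462575, plus strand: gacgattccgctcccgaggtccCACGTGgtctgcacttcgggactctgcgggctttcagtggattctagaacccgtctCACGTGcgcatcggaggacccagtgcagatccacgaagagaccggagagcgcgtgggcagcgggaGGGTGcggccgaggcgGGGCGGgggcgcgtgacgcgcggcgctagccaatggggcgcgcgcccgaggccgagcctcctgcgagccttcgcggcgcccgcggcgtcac

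The boxes that KLF and SP proteins recognise were frequent in these windows, as in other GC-rich promoters. GGGCGG, read on both strands, was in 7 of the 8 windows, all but that of Klf9. It was in 42.6% of all windows of protein-coding genes and in 76.2% of the 7831 windows within the KLF range of GC content. CACCC was in 6 of 8, all but Klf4 and Klf6, against 54.2% of all windows and 65.8% of those of like GC content. Klf3 held the most, with 6 GGGCGG and 5 CACCC boxes, of which 1 pair overlapped. All 18 GGGCGG boxes and 11 of the 12 CACCC boxes lay inside a peak of A and of B, and the other CACCC box was in the Klf7 window. The windows of Klf2, Klf4, Klf6, Klf9 and Klf13 lay wholly inside both peaks, so any motif there had to be inside. Only in Klf3, Klf7 and Klf15 could a box have lain outside. These counts therefore describe the peaks and say nothing about the boxes.

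Other motifs set the windows apart from each other. The Klf2 window was the only one of the 8 with a MEF2 site, 118 to 109 bp before the start and, like the whole window, inside both peaks. MEF2 factors are known activators of Klf2 below the kinase ERK5, and such a site was in 0.466% of all windows and 0.243% of those of like GC content. Klf9 held the only match to TGANTCA, which overlapped its CACCC box, against 6.13% of all windows and 3.09% of those of like GC content. That pattern leaves the centre base of the AP-1 motif free, and the letters in Klf9, tgaatCA, are not those of the AP-1 consensus. CCAAT, the NF-Y motif, was in the windows of Klf6, Klf9, Klf13 and Klf15, with 4 copies in Klf6, against 35.4% of all windows and 31.6% of those of like GC content. CACGTG, the E-box read by clock and other bHLH factors, was in Klf4, Klf6 and Klf15, against 6.63% and 9.82%. The 2 copies in Klf15 lay outside the peaks, and those of Klf4 and Klf6 lay inside, as did the whole windows of these genes. The cyclic AMP motif TGACGTCA, the TATA box TATAAA, the CArG box and the glucocorticoid receptor site had no match in any of the 8 windows, where 1.92%, 11.6%, 1.39% and 0.357% of all windows had one. Among windows of like GC content these shares were 2.89%, 2.86%, 0.945% and 0.166%. A match is a run of letters, not a bound site.

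Fold enrichment below is the ratio over local background given by the authors' peak caller, and −log10 q is that caller's measure of confidence. Neither was scaled between the lists, so ranks are given as percentiles within the same list, from low to high, with tied entries given their mean rank.

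Klf6, the early gene of stellate cell activation, had the strongest peak of the set. It lay at chr13:5861148-5861531 and covered the start, with its summit 140 bp upstream. Fold enrichment was 23.8 in A and 20.1 in B, at percentiles 98.5 and 96.9, and the −log10 q was 85.6 and 68.1. The summits of both replicates fell on the same base. The other replicated peak, at chr13:5870363-5870597, covered the far end of the gene, with 9.32 in A and 7.64 in B. Nothing was found in 1 replicate alone, and with flanks of 50 kb the count was still 2.

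Klf10, the TGF-beta-inducible early gene, had 4 replicated peaks, and its pattern was different. A wide peak of 705 bp at chr15:38298948-38299652 lay inside the gene and the long noncoding RNA gene Gm35248, with fold enrichments of 8.89 in A and 8.62 in B. A second wide peak of 528 bp at chr15:38300653-38301180 covered the higher end of the gene, with 8.09 and 7.24. These folds were below the list medians of 9.97 and 9.56, but the −log10 q was at percentile 80.9 in A and 83.3 in B for the first and at 74.7 and 70.9 for the second. Both lay in the body or at the end of the gene, and the others lay outside, 13.1 kb from the lower end with 9.91 in A and 13.2 in B, and 7.33 kb from it with 8.44 and 7.51. The strongest entry found in A alone at any of the 10 loci was also here, 2.17 kb outside the lower end at chr15:38289049-38289297, with 11.3. With flanks of 50 kb Klf10 had 7 replicated peaks, the largest gain in the set.

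Klf2, known in endothelium as the factor induced by laminar flow, had 2 replicated peaks and none in a single list. The start peak at chr8:72318782-72319138 had 22.5 in A and 17.4 in B, at percentiles 97.5 and 92.2, and its summit lay 112 bp upstream of the start. Its −log10 q was 69.9 and 42.0, and its ratio of A to B was 1.29. The other, at chr8:72303662-72303998, lay in no annotated gene with its summit 15.3 kb upstream, and had 18.9 and 13.8, at percentiles 92.4 and 80.1. It was the strongest peak outside a gene body in the set, and its summits in A and B were 2 bp apart.

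Klf4, a pluripotency factor that in vascular smooth muscle marks a change of state, had lower values. Its start peak at chr4:55532429-55532775 had 12.6 in A and 10.4 in B, at percentiles 69.4 and 57.3. The start of the long noncoding RNA gene Gm12506 lies 235 bp away on the opposite strand, and the same peak reached into it. The other replicated peak, at chr4:55514724-55514930, lay 17.7 kb downstream of the start, outside the gene, with 9.55 and 8.0. B alone had a weak entry at chr4:55532931-55533080 with 5.36, beside the start peak.

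Klf9 and Klf15, both known as targets of the glucocorticoid receptor, differed at their starts. Klf9 had a start peak of 595 bp at chr19:23140662-23141256, with 10.9 in A and 10.7 in B. A peak at chr19:23134855-23135248, 6.15 kb upstream inside the long noncoding RNA gene 2410080I02Rik, had 11.1 and 8.31. A neighbour at chr19:23135991-23136150 had 4.09 and 4.98, the lowest folds of any replicated peak in the set, and the fourth peak, at chr19:23164974-23165197 in the gene body, had 7.86 and 9.18. B alone had an entry at chr19:23125620-23125771 with 7.04.

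At Klf15 the peak at the tabulated start, chr6:90462441-90462612, was the weak one, with 6.82 in A and 8.22 in B, at percentiles 11.8 and 33.6. The strong one, at chr6:90463508-90463865, had its summit 1.09 kb downstream of the start inside the gene, with 19.9 and 15.2, at percentiles 94.3 and 85.5. Its near edge lies within 1 kb of the start, so it counts as a start peak here although its summit lies beyond. It ranked behind only the start peaks of Klf6 and Klf2 by mean percentile over A and B. A further peak in the body at chr6:90471259-90471512 had 12.5 and 11.8. Klf15 had 3 entries in a single list, the most of the set, the strongest being at chr6:90508185-90508535 in B with 9.09.

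Klf3, a repressor that acts through CtBP, had 3 replicated peaks. The start peak at chr5:64802906-64803495, of 590 bp, had 13.8 in A and 12.6 in B. It lies in the protein-coding gene Gm38457, which overlaps the start of Klf3 and has an end within 1 kb of the peak, so these genes cannot be told apart by this peak. The peak at chr5:64840068-64840347, 7.17 kb beyond the gene, had 12.9 and 12.0, and the one at chr5:64831760-64832004 near the far end had 8.12 and 5.69. The stronger of 2 entries in A alone, at chr5:64812164-64812323, had 7.25.

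Klf13, a member of the Sin3-binding group, had the most replicated peaks, and 5 of its 6 overlapped the gene body. The best-ranked lay 41.9 kb into the gene, at chr7:63896876-63897221, with 14.0 in A and 14.6 in B. It ranked above the start peak at chr7:63938896-63939263, which had 13.6 and 11.5. Klf13 was thus the only one of the 8 genes with a tabulated start whose best-ranked peak was not within 1 kb of it. For 7 of 8 it was, Klf15 by the edge of its peak, against 53.1% of the 5304 protein-coding genes with a replicated start peak and at least 2 replicated peaks in the locus. Next came peaks in the body at chr7:63905243-63905496 with 11.1 and 13.4, at chr7:63895433-63895741 with 11.5 and 10.0, and at chr7:63911305-63911612 with 10.6 and 7.88. The remaining replicated peak was the weakest, outside the gene at chr7:63875936-63876085, with 7.04 and 6.15. A alone had an entry at chr7:63925380-63925583 with 8.56.

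Klf7, which is closely related to Klf6, had its main peak at chr1:64121513-64121894, with 17.1 in A and 16.8 in B and a −log10 q of 65.7 and 57.5. The summit lay 340 bp upstream of the tabulated start, which is inside the gene span, so the peak overlaps the gene body. The long noncoding RNA gene Gm35880 starts 178 bp from that start on the opposite strand. A weak peak at chr1:64122275-64122429, with 5.17 and 6.91, lay at the higher end of the gene span. The peak at chr1:64018703-64018984, 10.5 kb beyond the far end of the gene, had 15.6 and 10.7, the highest ratio of A to B in the set at 1.46. In the body, the peak at chr1:64052336-64052656 had 6.92 and 9.65, and A alone had chr1:64088319-64088537 with 9.38.

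Klf5, best known in epithelium and in proliferating vascular smooth muscle, had 1 peak. It covered the lower end of the gene at chr14:99298407-99298696 and was the peak on which the replicates differed most in the direction of B, with 9.66 in A and 15.3 in B. These folds were at percentiles 47.2 in A and 85.9 in B, and the ratio of A to B was 0.632. With flanks of 50 kb it was still the only replicated peak.

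**Figure D3:**
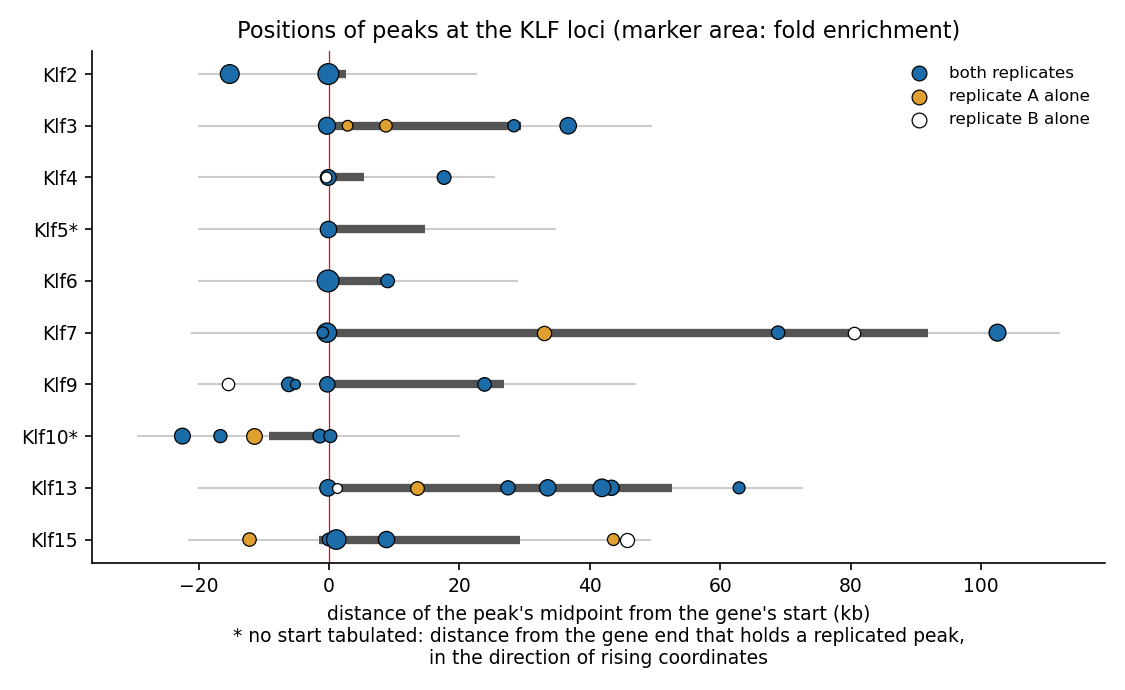
Midpoints of all peaks at the 10 KLF loci (one row per gene) by distance in kb from the gene's start in the direction of transcription, or, for the starred Klf5 and Klf10, from the gene end with a replicated peak in the direction of rising coordinates. Thick bars are gene bodies, thin lines the 20 kb flanks, and marker area is fold enrichment (mean of A and B where both have the peak). Every row has a replicated peak at or next to 0, which in the starred rows follows from the choice of that end. Klf13 has a run of replicated peaks in its body.

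Over the 31 replicated peaks, 14 lay within 1 kb of the tabulated start or an end of their gene, and 17 lay elsewhere. The first had median folds of 11.8 in A and 11.1 in B, from 5.17 to 23.8 in A, and the second had 10.6 and 9.65, from 4.09 to 18.9 in A, so both kinds overlapped over most of their range. Of the 31 peaks, 21 overlapped the body of the KLF gene, 10 lay outside it and 6 lay in no annotated gene. These splits by position were not taken over all 23452 replicated peaks, so they are not shown to be particular to the KLF loci. Exons were not told apart from introns here. Peaks of 500 bp or more numbered 4, at the starts of Klf3 and Klf9 and the 2 at Klf10, against 4.73% of all replicated peaks.

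The replicates gave nearly the same picture of these loci. Of the 38 entries of A, 31 were replicated, or 81.6% (Wilson 95% interval 66.6 to 90.8), against 64.1% in the whole list, and 31 of the 36 entries of B, or 86.1% (71.3 to 93.9), against 81.7%. The intervals cover counting error only, and peaks of 1 locus are not independent. Replication went with position: over all genes, entries of A at gene ends were replicated in 83.4% of cases and those away from them in 56.2%. At the KLF loci the shares were 12 of 12 at gene ends and 19 of 26 away from them (73.1%, 53.9 to 86.3). Fold enrichment was higher in A at 22 of the 31 peaks, with a median ratio of 1.12. Over all 23641 overlapping pairs A was higher in 66.5%, with a median ratio of 1.11. At the KLF loci the ratio ran from 0.632 at Klf5 to 1.46 at Klf7. Spearman's rho of the folds of A and B was 0.82 over these 31 peaks and 0.68 over all 23641 overlapping pairs; the peaks share their libraries, so this is a description. The 12 entries in a single list mostly had low folds. The 7 of A had a median of 8.27 and the 5 of B 7.04, close to the 7.96 and 7.52 of all single-list entries. The entry of A at Klf10, with 11.3 at percentile 61.3, was the only one of the 12 above the median of its list. Klf2, Klf5 and Klf6 had none.

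**Figure D4:**
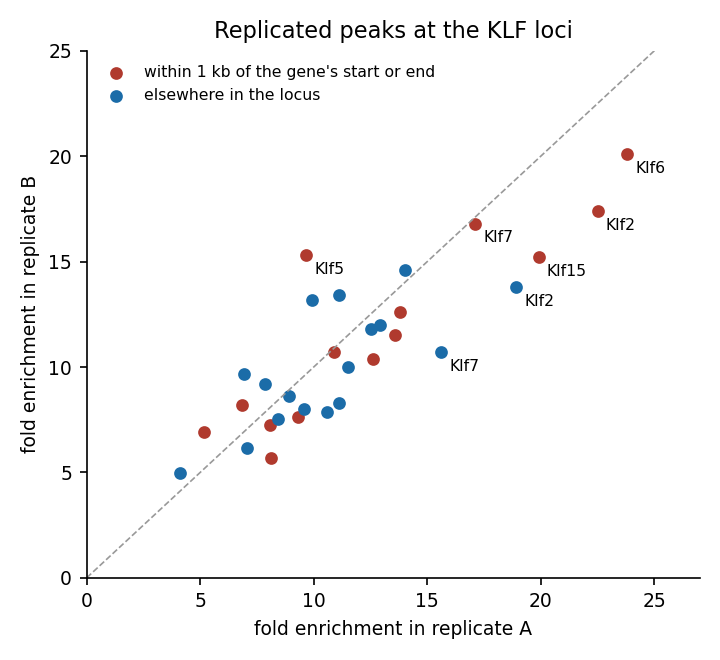
Fold enrichment in replicate A (horizontal axis) against replicate B (vertical axis) for the 31 replicated peaks at the KLF loci, red where within 1 kb of the gene's start or end and blue elsewhere; the dashed line marks equal values. Most points follow the line, 22 lie on the side of A, the start peaks of Klf6 and Klf2 are highest, and Klf5 lies farthest to the side of B.

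Of the other 7 KLF genes, 4 had a replicated peak in the locus and 3 at a gene end, with a median of 1. These shares are near those of all protein-coding genes, 64.6% in the locus and 41.9% at a gene end, and the difference from the 10 genes above was not tested. Klf16 had 4, Klf1, the erythroid member, had 2, and Klf11 had 2. The locus of Klf1 had no replicated peak at an end of the gene. Klf8, Klf14 and Klf17 had no replicated peak; Klf14 had 1 entry in A and the others had none in either list. Of 9 SP genes, 7 had a replicated peak in the locus and 3 at a gene end, with a median of 2, which is also near the shares of all genes. Sp2 had 6, with a replicated peak within 1 kb of a tabulated start though none at a gene end. Sp3 had 4 and Sp1 had 3, and the developmental genes Sp5 and Sp8 had no entry in either list. The loci of Sp2 and Sp6 overlap, as do those of Sp1 and Sp7, and so share peaks.

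Genes that act with or above KLF proteins had a replicated peak at every locus examined. All 9 genes of cofactors and ubiquitin ligases had a replicated peak, 7 of them at a gene end, with a median of 2 per locus. Of those without one at a gene end, Sin3a had a replicated peak within 1 kb of a tabulated start, and Kat2b had none there. The CtBP genes Ctbp1 and Ctbp2, whose products are the partners of KLF3, had 6 each, and Kat2b, which encodes an acetyltransferase, had 3. Of the genes upstream of Klf2 and Klf4, all 6 had a replicated peak and 3 had one at a gene end, with a median of 3. Among those without one at a gene end, Mef2a and Mef2c had replicated peaks within 1 kb of a tabulated start, and Map2k5 had none there. Mef2a had 5, Mef2d had 4, and Map3k3, which encodes a kinase above ERK5, had 3. Nr3c1, the glucocorticoid receptor gene above Klf9 and Klf15, for which no start was tabulated, had 3, none of them at a gene end. Their highest fold enrichment in A was 9.46, below the list median of 9.97. These lists are short and chosen by hand. The shares of all protein-coding genes were 64.6% in the locus and 41.9% at a gene end, and their median was 1 replicated peak per locus. Several of the listed genes, such as Mef2a, Mef2c and Ctbp2, are longer than the longest KLF gene, so their loci are larger. No share among genes of like span was taken for them, and no difference from other genes was tested.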

How the data were processed

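ATAC-seq peaks were analysed from 2 samples of 1 group, replicates A and B, grouped by their titles. The submitters' processing notes list HOMER, MACS2, bedtools, Picard, SAMtools and STAR 2.7.0 without roles, and build mm10. The authors deposited 1 peak list for each library. Any shift of reads for the Tn5 offset, and any cleaning of the lists, are steps not given in the sources used here. Every deposited entry has a summit offset, a score, a −log10 p, a −log10 q and a fold enrichment, which is a ratio to local background. In the deposited lists no −log10 q was under 3.04 (A) or 3.0 (B). The deposited score was not used further.

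Coordinates were made 1-based. Gene spans came from a RefSeq table, and starts and the 250 bases before them from RefSeq promoter windows, both of GRCm38.p6; 17492 of 21887 protein-coding genes had a start there. Entries were assigned to a locus or window by an overlap of at least 1 bp. A replicated peak has the coordinates of A, and where several entries of B overlap it, the strongest gives the value of B. Percentiles rank fold enrichment or −log10 q within a list. With 1 group there was no test between conditions, and no p-value is given. Shares have 95% Wilson intervals. The work was done in Python 3.11.15 with pandas 2.3.3, numpy 2.4.6, matplotlib 3.10.9 and scipy 1.17.1. On simulated lists of 25184 entries, all 18900 shared entries were recovered, and locus counts were right for 300 of 300 genes.

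The KLF genes and the other lists were chosen with earlier results of these data known. All 10 KLF genes were named, with every replicated peak, or the 5 best-ranked where there were more, and the strongest entry of a single list. In the other lists of 6 or more genes the 3 with most replicated peaks were named, with ties decided by the higher fold enrichment in A, and those with none, where 5 or fewer. Sin3a, Mef2c and Map2k5 were named as well, where peaks at starts were set beside those at gene ends. Sin3a tied with Kat2b and Mef2c with Map3k3, at 3 each; the marker genes named were chosen after their values were seen. Of the marker genes, Trac had no match in the table. Alternatives were other flanks, overlap rules, thresholds, start windows and each replicate alone.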

Additional observations from a re-analysis of the deposited data

How the results depend on the processing

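The 31 replicated peaks were 26 with flanks of 10 kb, 37 with 50 kb, 21 in gene bodies alone, 31 with a reciprocal overlap of 50% and 28 with summits within 100 bp. Keeping only entries whose −log10 q exceeded their list's median left 18, and the count was 12 among the 10000 strongest entries of each, where the median per locus was 1. All 10 loci had a replicated peak under the alternatives of flank and overlap, 9 above the median −log10 q and 8 among the 10000 strongest, where the share of all protein-coding genes was 52.7% and 41.6%. A replicated peak at the start, or at either end for Klf5 and Klf10, was found at 10 genes. It was found at 9 above the median −log10 q and at 8 among the 10000 strongest, where Klf4 and Klf5 had none. Of all protein-coding genes with a tabulated start, 44.2%, 33.1% and 25% had a replicated start peak under the same settings, in that order. These shares count tabulated starts only, so they are not a like measure for Klf5 and Klf10, where either end counted. The KLF count was 9 without peaks near ends of other coding genes, which removes that of Klf3. With summits within 100 bp it was also 9, where that of Klf10 is lost, and the share of all genes was 42.5%. No paired analysis was possible because there is 1 group. Replicate B alone had 36 entries and A alone 38, at all 10 loci in each; the replicated share needs both lists and was not run with either alone. Under the others that share was 73.7% to 90.0%, inside its interval. That interval covers counting error only, and the alternatives largely reuse the same entries, so lying inside it does not measure stability. Of 100 values of single loci under the alternatives, 74 stayed within 1.5 times, 23 fell and 3 rose. The lists give no reads, so a site with no entry may be closed or too shallow to call.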
